A study of Mus musculus with 5 samples.

Results

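The bone and liver sub-lines of NT2.5 mouse mammary tumour cells were set side by side at passage 3, the single passage number that both were profiled at. These are 2 of the series' 5 arrays, 1 of each sub-line, and they were chosen by their labels. NT2.5 is a line from a mammary tumour of neu transgenic mice, in which the mouse mammary tumour virus promoter drives the rat neu gene, the rat form of Erbb2. The array of the bone sub-line at passage 3 comes from cells labelled with a metastatic preference for bone, and that of the liver sub-line at passage 3 from cells that prefer liver. The other arrays held the bone sub-line at passage 6, the liver sub-line at passage 1 and the parental wild type NT2.5 cells, whose label lists all of bone, liver and lung. All 5 samples derive from the same tumour line, and each sub-line is 1 lineage. The labels do not say whether a passage was made in culture or through an animal.

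Breast tumours spread to bone and liver by crossing different barriers. In bone, tumour cells that release factors such as parathyroid hormone-related protein or colony-stimulating factor stir osteoclasts to resorb the matrix, and resorption frees growth factors. In liver, tumour cells pass fenestrated sinusoids and meet resident macrophages and hepatocytes. Lines that are taken repeatedly from 1 organ are used to look for genes that go with a preference for it.

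Each gene is given by its fluorescence intensity on each array, and a difference is the log2 of the intensity plus 16 in bone passage 3 minus the same in liver passage 3. A difference of 1 is thus a 2-fold higher value in the bone sub-line, and folds of dim genes are understated. With 1 array per group there is no replicate and no test, so no difference below has a p-value, an error or a replicate check. Bone passage 6 and liver passage 1 make a second pair of the same sub-lines that shares no array with the first, at unequal passage numbers. Many genes also have several probe sets on the array, which check the probes but share the hybridisation.

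The median intensity was 26.4 on the bone passage 3 array and 26.2 on the liver passage 3 array, and 21.9 to 26.1 on the others. Of the mammary epithelial markers 8 of 9 were tested and 0 of them were 2-fold apart (median difference 0.11). Their summed intensity over all 9 was 28256 in bone passage 3 and 27608 in liver passage 3. The 1 not tested, Krt19, was near the floor at 3.3 and 2.9. Hepatocyte markers summed to 106 and 139 over the 10 on the array, with albumin (Alb) at 2.4 and 10.1. The 5 osteoblast markers on the array summed to 526 and 182, of which Alpl made 445 and 108 and Sp7 58.4 and 56.5, with Ibsp at 14.5 and 14.4. The 9 endothelial markers summed to 163 and 138, of which Kdr made 75.2 and 54, with Pecam1 at 6.1 and 1.9. The 6 osteoclast markers summed to 524 and 557, of which Acp5 made 410 and 448. The 8 neutrophil and erythroid markers on the array summed to 1522 and 2229, of which Ltf made 1105 and 1856 and S100a8 320 and 302. Both arrays thus carried most of the epithelial markers at high level. The part of host cells in the results was not tested.

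Of 12609 genes tested, 584 differed by 2-fold or more (4.63%). Bone passage 3 had the higher value in 284 (2.25%) and the lower value in 300 (2.38%), relative to liver passage 3. The extremes were more often on the bone side. Past 4-fold were 43 genes with the higher value in bone and 27 with the lower, and past 8-fold 9 and 8. In bulk RNA, fewer cells that express a gene and less of its RNA per cell cannot be told apart. Between 2 passages of 1 sub-line the counts were 309 genes for bone passage 6 over bone passage 3 (2.45%, with 0.365% higher and 2.09% lower) and 355 for liver passage 3 over liver passage 1 (2.82%, with 1.69% higher and 1.13% lower). The split of the passage counts moved with the scaling but kept its direction, and bone passage 6 had the lowest array median. Median centring gave 97 higher and 181 lower genes for bone passage 6 over bone passage 3, where it moved the median of all genes to 0.12, against -0.04 without it. The totals stayed at 278 to 309 for the bone passages and 355 to 362 for the liver passages under both scalings. The sub-lines at passage 3 thus differed at more genes than either sub-line did between its own passages.

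**Figure D1:**
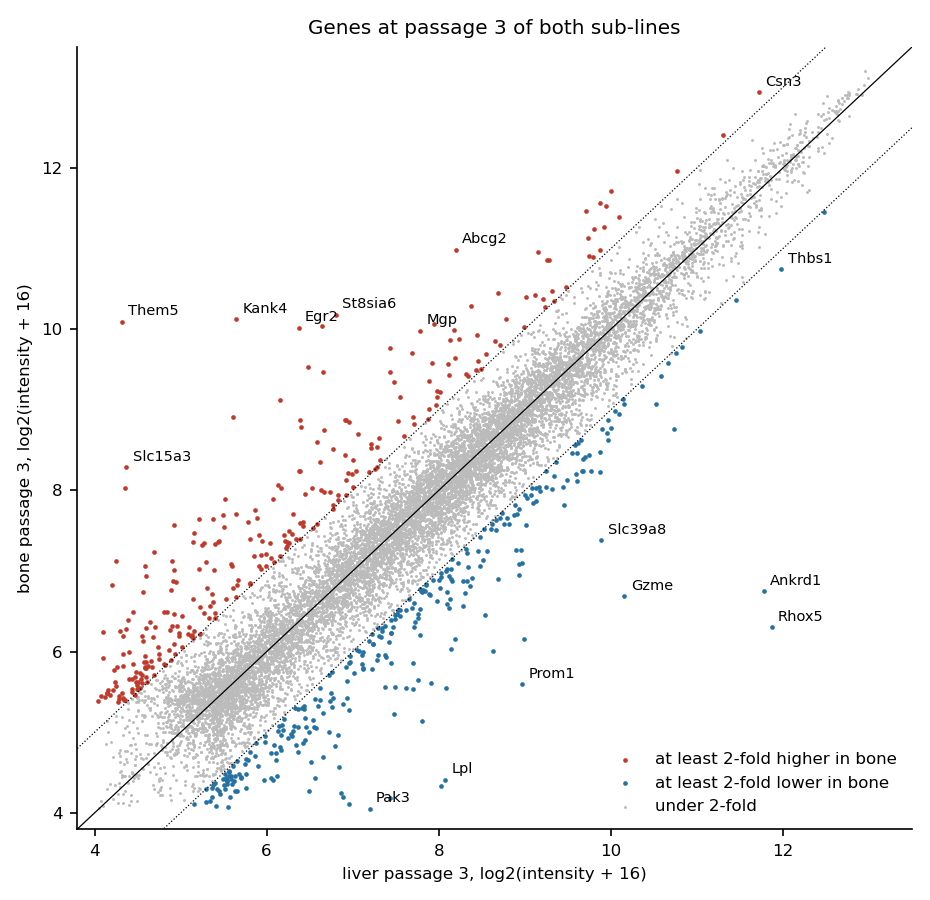
Level of each of the 12609 genes in bone passage 3 (vertical axis) against liver passage 3 (horizontal axis), as log2(intensity + 16), 1 point per gene. Dotted lines mark 2-fold; 284 genes lie on or above the upper line and 300 on or below the lower, with Them5 and Kank4 at the upper left and Rhox5 and Ankrd1 at the lower right.

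Most of these genes have a single probe set above the intensity filter (178 of the higher and 185 of the lower). Of the 221 with several, 199 (94 higher and 105 lower) had every probe set on the same side, or 90.0%. Over all genes with several probe sets, 2-fold apart or not, the share was 59.7%. In 59 of the higher and 54 of the lower genes at least 2 probe sets were each 2-fold apart, and these genes are given first below. In 227 of the 584 genes the dimmer of the 2 arrays was under 25.1, the median of all values in the series, so that their folds depend strongly on the added 16.

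In bone passage 6 over liver passage 1, 897 genes differed by 2-fold or more (7.11%), with bone higher in 356 (2.82%) and lower in 541 (4.29%). That split depended on the scaling: it was 469 higher and 399 lower with median centring, and 412 and 426 with quantile normalization. Higher in both pairs were 70 genes, which is 24.6% of the higher genes at passage 3 and 19.7% of those in the other pair. Lower in both were 116, or 38.7% and 21.4%. Of the 284 higher genes 203 had the same sign in the other pair, and of the 300 lower genes 256 did. In opposite directions, each 2-fold, were 19 genes. Among the 113 genes with at least 2 probe sets 2-fold apart, 20 of 59 higher and 30 of 54 lower genes were 2-fold apart the same way in the other pair. There only the brightest probe set of each gene was counted.

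Among the higher genes with agreeing probe sets, Them5, a mitochondrial acyl-CoA thioesterase that acts in cardiolipin remodelling, led. Its intensity was 1077 in bone passage 3 and 3.9 in liver passage 3, 78.6 in bone passage 6 and 16 in liver passage 1, and 69.1 in parental cells. Bone passage 3 stood alone above all other arrays. The difference was 5.78 at passage 3 and 1.56 in the other pair, with 4.52 and 0.56 for the other probe sets at passage 3. The zinc-finger transcription factor Egr2 was at 1021 and 66.8 in bone and liver passage 3, at 223 and 278 in bone passage 6 and liver passage 1, and at 469 in parental cells. Its difference was thus 3.65 at passage 3 and -0.30 in the other pair. Both of these genes were highest in bone passage 3 and lowest in liver passage 3 of the 5 arrays.

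The sialyltransferase St8sia6, which adds sialic acid to sialylated glycans, had 1145 in bone passage 3 and 95.6 in liver passage 3 (3.38, with 3 of 3 probe sets between 3.11 and 3.38). It had 385 and 201 in bone passage 6 and liver passage 1 and 457 in parental cells, so that the bone value lay above and the liver value below the parental one. Mgll, the lipase that splits monoacylglycerols, had 539 in bone passage 3 and 55.1 in liver passage 3 (2.97). It had 105, 48.4 and 50 in bone passage 6, liver passage 1 and parental cells, so that the bone array was the one that stood apart. Adgrg6, an adhesion G protein-coupled receptor, had 693 in bone passage 3 and 84.4 in liver passage 3 (2.82), 358 in bone passage 6 and 151 in liver passage 1, and 685 in parental cells, so that both liver arrays lay below the other 3.

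The secreted semaphorin Sema3b (2.39 at passage 3, 1.43 in the other pair) was close to 0 in parental cells, at 1.8, against 427 and 68.3 in bone and liver passage 3. The mitochondrial creatine kinase Ckmt1 (2.37), the aquaglyceroporin Aqp9 (2.08), the carboxypeptidase Cpm (2.06) and the TNF receptor family member Tnfrsf19 (2.21) were also higher. So were the NRF2 relative Nfe2l3 (2.04), the oxygen-sensing prolyl hydroxylase Egln3 (2.01), the calcium-binding S100b (2.01) and Nrep (2.32). Of these 8, Aqp9 (1.30), Cpm (1.34) and Egln3 (1.66) were at least 2-fold higher in the other pair too, by their brightest probe set. Their second probe sets were under 2-fold there, at 0.74, 0.42 and 0.63. The 15 chosen by the rule include 1 gene with a RIKEN name only.

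Higher genes with 1 probe set rest on that probe set alone. Kank4, an ankyrin-repeat protein linked to actin, had 1097 in bone passage 3 and 34.1 in liver passage 3, 502 in bone passage 6 and 24.6 in liver passage 1, and 59.3 in parental cells. The lysosomal peptide and histidine transporter Slc15a3 had 297 and 4.7, then 285 and 12.1, and 2.2. For these, both bone arrays lay far above the other 3, and the differences in the 2 pairs were close (4.47 and 3.67 for Kank4, 3.92 and 3.42 for Slc15a3). Hhipl2 (3.67), the membrane mucin Muc15 (3.41) and the ion-transport kinase Wnk4 (3.30) were farther apart at passage 3 than in the other pair, where they had 0.82, 1.17 and 0.82.

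Among the lower genes with agreeing probe sets, Ankrd1, a muscle ankyrin-repeat protein and a target of the YAP coactivator, led. It had 91.9 in bone passage 3 and 3496 in liver passage 3, 228 in bone passage 6 and 602 in liver passage 1, and 80.2 in parental cells. The liver passage 3 array stood apart, and the difference was -5.02 at passage 3 and -1.34 in the other pair. Lpl, the lipoprotein lipase that frees fatty acids for uptake, had 5.3 in bone passage 3 and 254 in liver passage 3, 13 in bone passage 6 and 82.8 in liver passage 1, and 56 in parental cells (-3.66). Its order, with both bone arrays lowest and the parental array between, was also that of Pak3, a p21-activated kinase (-3.14, with 4 of 4 probe sets at least 2-fold lower).

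Ogn, the small leucine-rich proteoglycan osteoglycin, had 1.3 in bone passage 3 and 108 in liver passage 3, and 1.3, 0.9 and 7.8 in bone passage 6, liver passage 1 and parental cells. Its difference was -2.84 at passage 3 and 0.03 in the other pair. The zinc importer Slc39a8 had 152 and 933 in bone and liver passage 3 and 197 and 792 in bone passage 6 and liver passage 1, with 704 in parental cells. Both bone arrays lay below the other 3, with differences of -2.50 and -1.93. The same placing held for the mitochondrial-membrane protein Armcx3 (-2.25 and -2.47), the phosphatase subunit Ppp2r2c (-2.06 and -3.42), the metalloproteinase Adam12 (-2.03 and -1.32), the secretory-pathway kinase Fam20c (-1.97 and -1.99), the collagen Col8a1 (-1.64 and -1.25) and the CD47 receptor Sirpa (-2.11 and -1.30). The adaptor Fyb was 2-fold lower at passage 3 and level in the other pair (-1.53 and 0.02). The 15 chosen by the rule also hold Trim30a and Gbp2, given with the interferon genes, and 1 gene with a RIKEN name only.

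Rhox5, an X-linked homeobox gene known for its control by DNA methylation, was the most distant gene on the lower side and has 1 probe set. It had 63 in bone passage 3 and 3731 in liver passage 3, 126 in bone passage 6 and 1662 in liver passage 1, and 2810 in parental cells (-5.57 at passage 3 and -3.57 in the other pair). The maintenance DNA methyltransferase Dnmt1 had a difference of -0.47 and the de novo enzymes Dnmt3a and Dnmt3b had 0.07 and 0.40. Prom1, the membrane glycoprotein CD133, had 32.4 and 485 at passage 3, 4.9 and 453 in the other pair and 59.6 in parental cells. Its parental value lay nearer to the bone values, unlike that of Rhox5. Ppm1m, a protein phosphatase, had 2.2 and 157 (-3.25). Gzme had 87.1 and 1126 (-3.47), but its probe set is of a kind that can bind several near-identical granzyme transcripts, so its identity is uncertain. The chloride channel regulator Clca2 (-2.62) had 48.6 and 382.

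**Figure D2:**
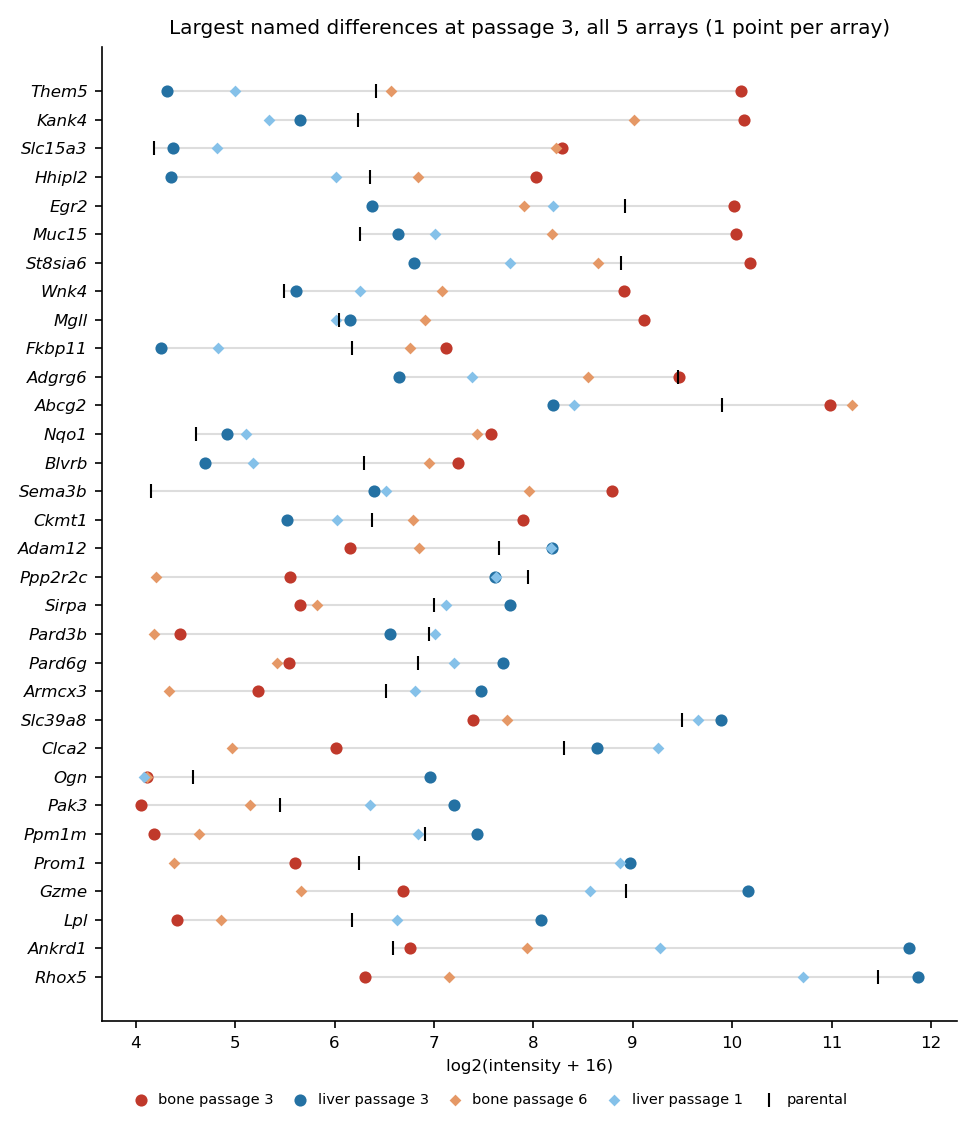
Level of the 16 named genes highest in bone passage 3 over liver passage 3 (upper rows) and of the 16 lowest (lower rows) on each of the 5 arrays, as log2(intensity + 16), 1 point per array. Circles are the passage 3 arrays, diamonds the other sub-line arrays and ticks the parental array; Kank4 and Slc15a3 keep both bone arrays apart from the rest, whereas Them5, Ankrd1 and Ogn set 1 array apart.

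Genes at least 2-fold apart at passage 3 were also placed against the parental array. With 1 parental array this gives the position of the values and cannot show which sub-line changed. Of the 284 higher genes, the parental value was within 1.5-fold of bone passage 3 alone for 90 and of liver passage 3 alone for 118. It lay within 1.5-fold of both for 7, between them for 38, above both for 9 and below both for 22. Of the 300 lower genes the numbers were 113 near bone, 111 near liver, 13 near both, 40 between, 14 above and 9 below. Genes that set the sub-lines apart at passage 3 were thus split between those where the bone array and those where the liver array differed from the parental one.

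The difference was uneven over the chromosomes. This was seen in the data and then computed, and chromosomes come from the RefSeq table of GRCm38.p6. On chromosome X, 304 of 354 tested genes (85.9%) had the lower value in the bone array, with a median difference of -0.54. Of these X-linked genes 42 were at least 2-fold lower (11.9%) and 3 at least 2-fold higher. Chromosome 9 had a median of -0.28 (687 genes), chromosome 3 one of -0.25 (617 genes) and chromosome 5 one of -0.21 (803 genes). Chromosome 6 was shifted the other way, by 0.18 (636 genes). The medians of the remaining 15 autosomes lay between -0.03 and 0.10.

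In the other pair the medians were -0.43 for X, -0.32 for chromosome 9, -0.29 for chromosome 3, -0.19 for chromosome 5 and 0.15 for chromosome 6. These 5 medians thus had the same sign in 2 pairs that share no array. Chromosome 2 was at -0.03 at passage 3 and at -0.25 in the other pair, and between the bone passages, 6 over 3, it was at -0.19. Against the parental array, X-linked genes had a median of -0.20 in bone passage 3 and 0.34 in liver passage 3. For chromosome 9 these values were -0.29 and 0.02, and for chromosome 5 they were -0.03 and 0.19. All of them share the parental array. Chromosome 12 was low on both against it, at -0.19 and -0.24, and differed by 0.05 between the sub-lines.

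The X shift ran along the whole chromosome. Cut into 10 blocks of 35 or 36 genes in map order, X had block medians from -0.66 to -0.25 at passage 3 and from -0.63 to -0.13 in the other pair. The single-copy housekeeping enzyme Hprt had 1036 in bone passage 3 and 1878 in liver passage 3. Xist, the RNA that silences 1 X chromosome in female cells, had 20.8 and 31.7 there, 40.5 and 48.6 in bone passage 6 and liver passage 1, and 225 in parental cells. Rhox5, Pak3 and Armcx3 are the X-linked genes with the lowest values, and Dock11 (1.69) and the gap junction gene Gjb1 (1.55) have the highest. The genes Cul4b (-1.64), Pnck (-1.67), Dock11 and Gjb1, and Hprt and Xist, were singled out after their values were seen. Of the 300 lower genes 118 lie on chromosomes X, 3, 5 or 9, which hold 2461 of the 12609 genes tested. These chromosomes were picked by their low medians on the same arrays, so this count restates the shift and adds no support. Copy number was not measured here. Named genes that went the way of their chromosome include Csf1, Slc39a8, Clca2 and Veph1 (chromosome 3) and Prom1, Kit and Fam20c (5). Abcg2, Ccnd2 and Tspan12 (6) did so too. Others went against it, such as Them5 and Hey1 (3), Csn3 and Tgfbr3 (5) and Sema3b and Aqp9 (9). The part of the chromosome shifts in single genes and lists was not tested.

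**Figure D3:**
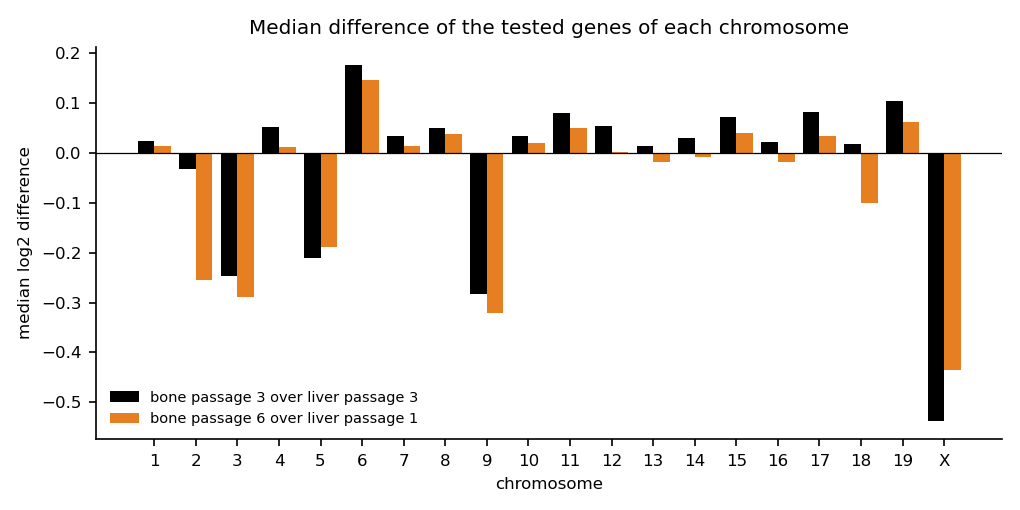
Median log2 difference over the tested genes of each chromosome, for bone passage 3 over liver passage 3 (black) and bone passage 6 over liver passage 1 (orange). Bars start at 0; chromosome X reaches -0.54 and -0.43, chromosomes 3, 5 and 9 are below 0 in both pairs, chromosome 6 is above 0 in both, and chromosome 2 is low in the second pair.

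Gene lists are described by their members and set against the whole: the median of all genes was -0.003 at passage 3 and -0.05 in the other pair. Of 616 listed genes that were tested, 34 were at least 2-fold higher and 38 lower, beside the 2.25% and 2.38% of all genes. The lists were chosen with earlier results of these data known, so an excess of such genes on them adds no support. Members under 2-fold that are named here were picked after their values were seen. The loading control Actb had 6720 and 6078 (0.14, and 0.18 in the other pair). Its second probe set gave 0.54 at passage 3 and -0.16 in the other pair.

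Interferon response genes are induced by interferons and many encode antiviral proteins. Of 30 tested, 22 had the lower value in bone passage 3, 3 of them by 2-fold or more, and 0 were 2-fold higher. The median was -0.31. Trim30a, a ubiquitin ligase family member that restrains TLR signalling, had 17.2 and 79.5 at passage 3 and 11.6 and 44.9 in the other pair (-1.52 and -1.14). The GTPase Gbp2 had 80.8 and 258, then 41.4 and 140 (-1.50 and -1.44). The RNA-binding protein Ifit3 had 43.4 and 140, then 9 and 72.6 (-1.39 and -1.83). Each bone value of these 3 genes lay below each liver value. The list as a whole did not keep its size between the pairs, with a median of -1.18 and 17 members 2-fold lower in the other pair. Usp18, which removes ISG15, had -0.07 at passage 3 and -2.66 in the other pair, and the transmembrane chaperone gene Rtp4 had -0.03 and -2.68. The sensor regulator Dhx58 had 0.96 and -0.54.

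The promoter windows of the 3 interferon genes that were 2-fold lower are shown because all 3 hold the core of the interferon-stimulated response element. The letters searched, on both strands, were GAAA and GAAA again with any 2 bases between. Each window, from RefSeq on GRCm38.p6, runs from 250 bases before to 50 bases after the start on the strand of the gene, and capitals mark each match. All matches read on the opposite strand. The windows are Gbp2 at chr3:142620413-142620712 (+ strand) and Ifit3 at chr19:34583279-34583578 (+ strand). For Trim30a, which has 2 windows listed, the first that holds the core is shown, at chr7:104465144-104465443 (- strand).
Gbp2: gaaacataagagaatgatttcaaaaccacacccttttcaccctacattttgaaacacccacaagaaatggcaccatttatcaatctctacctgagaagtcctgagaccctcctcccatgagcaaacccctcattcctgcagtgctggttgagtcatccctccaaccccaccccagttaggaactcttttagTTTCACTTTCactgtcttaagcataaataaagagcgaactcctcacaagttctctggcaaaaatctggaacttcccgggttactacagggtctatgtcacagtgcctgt
Ifit3: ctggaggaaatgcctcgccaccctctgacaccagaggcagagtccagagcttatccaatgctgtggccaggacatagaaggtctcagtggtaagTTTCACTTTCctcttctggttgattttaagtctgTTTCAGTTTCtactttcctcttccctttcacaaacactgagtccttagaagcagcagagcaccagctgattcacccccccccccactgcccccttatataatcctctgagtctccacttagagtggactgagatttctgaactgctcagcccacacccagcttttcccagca
Trim30a: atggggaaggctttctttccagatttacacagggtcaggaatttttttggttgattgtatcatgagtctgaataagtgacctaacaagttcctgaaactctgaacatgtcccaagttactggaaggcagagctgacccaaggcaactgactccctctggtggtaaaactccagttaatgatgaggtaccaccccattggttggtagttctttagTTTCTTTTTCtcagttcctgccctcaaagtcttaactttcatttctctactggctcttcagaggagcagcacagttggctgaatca

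The core occurs in 1131 of all 32851 such windows (3.44%). Of the 24 interferon genes with a window, 14 hold it, with a median difference of -0.51 at passage 3 and -1.25 in the other pair. The 10 without it had -0.31 and -0.91. Among all genes at least 2-fold lower in bone passage 3 the core was in 10 of 310 windows (3.23%), and among the higher ones in 5 of 306 (1.63%). Over all tested genes it was in 386 of 13064 windows (2.955%). A match is a string of letters in this window and not a measured binding site.

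Genes of MHC class I presentation, which carry peptides to the cell surface for T cells, had a median of -0.35 over 12 members, with 1 at least 2-fold lower. That was Nlrc5, the transactivator of class I genes, at 12.8 and 51.7. The immunoproteasome subunits Psmb8, Psmb9 and Psmb10 had -0.48, -0.59 and -0.78, while the heavy chain genes H2-K1 and H2-D1 had -0.12 and 0.09. The 4 probe sets of H2-K1 ran from -0.12 to 0.35 and the 6 of H2-D1 from -0.61 to 0.09. The class II genes had a median of -0.02 over 6 members, with 0 of them 2-fold apart.

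Chemokines and colony-stimulating factors draw leukocytes and set their growth. Of 17 tested, 13 were lower and 3 at least 2-fold lower, with a median of -0.25 (-0.62 in the other pair). Ccl20, the ligand of CCR6, had 90.8 and 258 at passage 3 and 122 and 560 in the other pair (-1.36 and -2.07). Csf1, the growth factor of macrophages and osteoclast precursors, had 492 and 1044, then 491 and 1400 (-1.06 and -1.48, with 4 of 4 probe sets lower at passage 3). Both were lower in each bone array than in each liver array. The granulocyte-macrophage factor Csf2 had 17.6 and 78.1 at passage 3 and 47.8 and 10.6 in the other pair, so that its direction was not the same. The neutrophil chemokines Cxcl1 and Cxcl5 had -0.25 and -0.09. Among 18 NF-kB and inflammatory genes the interleukin-1 receptor antagonist Il1rn was 2-fold higher (1.27), and the apoptosis inhibitor Birc3 (-1.06) and the NF-kB brake Tnfaip3 (-1.05) were 2-fold lower. In the other pair these 3 had -0.40, -2.44 and 0.97.

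Markers of macrophages were lower in bone for 13 of 13 tested in the other pair, and for 6 of 13 at passage 3. Over 17 markers the summed intensity was 493 in bone passage 3 and 707 in liver passage 3, and 404 in bone passage 6 and 979 in liver passage 1. Of the 13 tested, Csf1r (-1.16, 89.3 and 220) and the Fc receptor gene Fcgr3 (-1.05, 1.3 and 19.7) were 2-fold lower at passage 3, and the median was 0.08. The 3 probe sets of Csf1r ran from -1.16 to -0.22, and Fcgr3 was under the filter level of 25.1 on both passage 3 arrays. The complement genes C1qa and C1qc were near the floor in bone passage 3 (1.0 and 1.8) and in liver passage 3 (1.1 and 0.8), whereas liver passage 1 had 56.1 and 44.9. The part of such cells in the interferon and chemokine values was not tested.

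Factors that regulate osteoclasts, taken with their inhibitors, had 9 tested members, of which Csf1 and the Notch ligand Jag1 (-1.02, with 362 and 752) were 2-fold lower and 0 were 2-fold higher. Osteoprotegerin, the decoy receptor for RANKL encoded by Tnfrsf11b, had -0.80. Of 10 bone matrix and mineralization genes, 3 were at least 2-fold higher in bone passage 3. The phosphatase Alpl, which frees phosphate for mineral, had 445 and 108 at passage 3, 395 and 143 in the other pair and 470 in parental cells (1.89 and 1.37). The calcification inhibitor Mgp had 995 and 204, then 361 and 373 (2.20 and -0.05). The BMP and Wnt antagonist Sostdc1 had 2456 and 956, then 1962 and 1133, against 69.3 in parental cells (1.35 and 0.78). Fam20c, the kinase of secreted mineralization proteins, was the 1 member at least 2-fold lower. For Alpl the bone arrays were near the parental value and the liver arrays below it, while for Sostdc1 all 4 sub-line arrays were far above it.

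NRF2 targets, which detoxify quinones and oxidants and keep glutathione reduced, had 5 of 22 tested members at least 2-fold higher and 0 at least 2-fold lower, with a median of 0.17. The quinone reductase Nqo1 had 174 and 14.3 at passage 3, 157 and 18.4 in the other pair and 8.3 in parental cells (2.65 and 2.33). The biliverdin reductase Blvrb had 135 and 9.9, then 107 and 20.3, and 62.7 (2.54 and 1.76). Both bone arrays lay above both liver arrays for these genes. The glutathione peroxidase Gpx2 had 632 and 163, then 436 and 241, and 802 in parental cells (1.86 and 0.81). Aldh3a1 (1.16) and the glutathione transferase Gstm2 (1.06) completed the 5. The rate-limiting glutathione synthesis subunits Gclc and Gclm (0.25 and 0.26), thioredoxin reductase Txnrd1 (0.34) and Srxn1 (0.09) were under 2-fold, and Me1 (-0.90) and Cbr3 (-0.89) had lower values. The antioxidant response element core, searched as TGACNNNGC on both strands, was in 7 of 24 windows of these genes (29.2%) and in 12.4% of all windows. Those 7 windows belong to 6 of 17 genes. The core was in 14.2% of windows of all tested genes, 13.7% of those of higher genes and 13.9% of those of lower genes.

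Of 15 xenobiotic enzymes and ABC pumps 2 were at least 2-fold higher and 2 lower. Abcg2, the efflux pump known as breast cancer resistance protein, had 2014 and 278 at passage 3, 2340 and 325 in the other pair and 940 in parental cells, a difference of 2.79 in both pairs. Cyp2f2, a lung-type cytochrome P450, had 61.5 and 4.7 (1.90, and 0.57 in the other pair). The carboxylesterase Ces1g had 0.8 and 31 at passage 3, 1.6 and 2.8 in the other pair and 273 in parental cells. The aldo-keto reductase Akr1c13 had 23.6 and 69.4 at passage 3 and 66.1 and 18.6 in the other pair, in opposite directions.

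YAP and TAZ, the coactivators of the Hippo pathway, bind DNA through TEAD factors. Of 11 tested genes of this list, 2 were at least 2-fold lower in bone passage 3, Ankrd1 and the Hippo kinase Lats2 (-1.01, with 196 and 411), and 0 were 2-fold higher. The list's median was -0.48. The 5 probe sets of Lats2 ran from -1.01 to -0.27, with 1 past 2-fold. The target Ccn1 had -0.87 (1591 and 2922), Amotl2 had -0.64, Yap1 itself -0.38 and the TAZ gene Wwtr1 -0.51. Ccn2 had 0.30 at low intensity. In the other pair the median was -0.24, with Ccn1 at -0.19. The part of the chromosome shifts in this list was not tested. The window of Ankrd1, the second lowest gene of all, is shown with the TEAD core GGAATG, searched on both strands, in capitals (RefSeq, GRCm38.p6, chr19:36119795-36120094, - strand).
Ankrd1: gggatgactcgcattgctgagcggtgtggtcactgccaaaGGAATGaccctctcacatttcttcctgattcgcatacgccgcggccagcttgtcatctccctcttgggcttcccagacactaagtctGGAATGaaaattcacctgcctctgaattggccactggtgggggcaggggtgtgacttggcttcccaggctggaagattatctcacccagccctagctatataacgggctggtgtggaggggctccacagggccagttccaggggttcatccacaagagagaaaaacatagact

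The window holds 2 matches, both on the strand of the gene. Of the 11 windows of this list's genes, 9 hold the core, as do 14.7% of all windows and 12.2% of those of tested genes. The share was 16.5% for windows of lower genes and 14.7% for those of higher genes. Counted by gene, it was 14.41% of tested genes, 19.25% of lower genes and 19.82% of higher genes. In the 4 windows shown, 0 matches overlap a match of another of the 3 motifs searched.

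Of 25 DNA replication and mitosis genes, 23 had a lower value, 0 were 2-fold apart and the median was -0.39. The ribonucleotide reductase subunit Rrm2 had 1544 and 2566 (-0.73), the survivin gene Birc5 1123 and 1852 (-0.71), the mitotic kinase Bub1 373 and 613 (-0.69) and topoisomerase Top2a 1401 and 2164 (-0.62). In the other pair 24 of the 25 were higher in bone, with a median of 0.75 and 9 at least 2-fold higher. There Rrm2 had 2949 in bone passage 6 and 992 in liver passage 1, and 2495 in parental cells. By its values, liver passage 1 was the low array for Rrm2 and bone passage 3 the next. The list's order therefore depended on which passages were compared, and it did not go with the sub-line.

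Among D cyclins and G1 inhibitors, 11 of which were tested, the cyclin Ccnd2 was 2-fold higher and the INK4 inhibitor Cdkn2c 2-fold lower. Ccnd2 had 786 and 276 at passage 3, 688 and 83.7 in the other pair and 158 in parental cells (1.46 and 2.82). Of its 7 probe sets, 7 were higher in bone passage 3, from 0.48 to 1.46. Cdkn2c had 219 and 546 (-1.26) and -0.13 in the other pair. Ccnd1 had -0.15.

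Amino acid stress and unfolded protein genes, which ATF4 and the endoplasmic reticulum sensors induce, were higher for 25 of 28 members, with a median of 0.37 and 2 at least 2-fold higher. Trib3, a pseudokinase induced by ATF4, had 877 and 403 at passage 3 and 385 and 1923 in the other pair (1.09 and -2.27). The asparagine synthetase Asns had 0.72, the serine synthesis gene Psat1 0.73 and the amino acid transporter subunits Slc7a5 and Slc3a2 0.93 and 0.67. The prolyl isomerase Fkbp11 had 123 and 3 (2.87), with a second probe set at 0.43. In the other pair 20 of the 28 were lower in bone and the median was -0.29. Immediate early genes did likewise, with 15 of 18 higher at passage 3 (median 0.36, Egr2 alone past 2-fold) and 13 of 18 lower in the other pair (median -0.34). For these lists too, the order of the sub-lines at passage 3 was not that of the other pair.

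**Figure D4:**
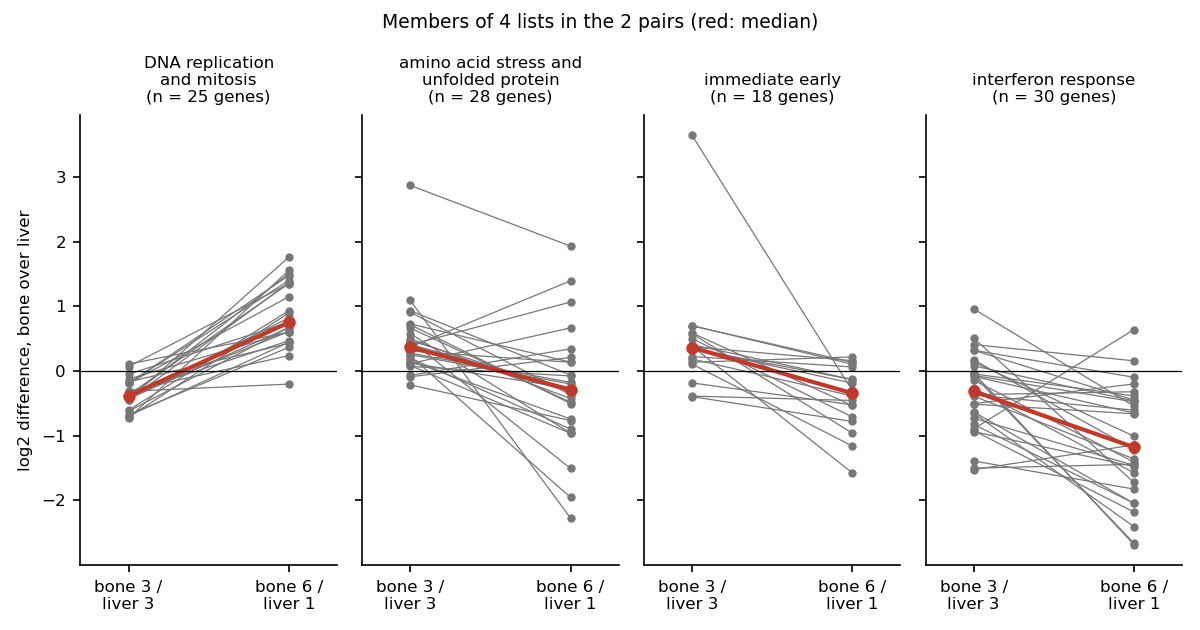
Log2 difference of each tested member of 4 lists in bone passage 3 over liver passage 3 (left of each panel) and bone passage 6 over liver passage 1 (right), joined by gene, with the median in red. The median goes with -0.39 and 0.75 for DNA replication and mitosis, 0.37 and -0.29 for amino acid stress, 0.36 and -0.34 for immediate early and -0.31 and -1.18 for interferon genes.

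Of 11 luminal mammary and milk genes, 9 were higher and 2 at least 2-fold so, with a median of 0.19. The prolactin-pathway factor Stat5a had 639 and 221 at passage 3 and 433 and 210 in the other pair (1.47 and 0.99). The kappa-casein gene Csn3 had 7863 and 3350, then 7739 and 3500 (1.23 and 1.14), with 6731 in parental cells. The luminal regulator Gata3 had 0.91, Elf5 0.46 and Esr1 0.19, and the progenitor receptor Kit was 2-fold lower (-1.12). Among 17 basal and stem genes, Id4, an inhibitor of helix-loop-helix factors, had 1978 and 555 (1.80, with 3 of 3 probe sets at 1.80 or above), and Prom1 was the 1 gene 2-fold lower. Keratin Krt23 was 2-fold higher (1.82) and the cornified envelope protein Ivl 2-fold lower (-1.46), with 0.84 and 0.15 in the other pair.

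Epithelial junction and mesenchymal genes were mostly alike. Of 14 claudin and tight junction genes, Cldn8, a barrier claudin, was 2-fold higher (2.15, with 59.8 and 1.1). Of 12 EMT genes, S100a4 was 2-fold lower, at 37.3 and 114, while in the other pair it had 230 and 29.8 (-1.28 and 2.43). E-cadherin Cdh1 had -0.05 and vimentin Vim -0.43. Of 14 polarity genes 5 were lower, 3 of them by 2-fold or more, namely the PAR complex members Pard6g (-2.15, 30.6 and 191) and Pard3b (-2.12, 5.7 and 78.2), and Veph1 (-1.67). These had -1.78, -2.82 and -1.91 in the other pair, but the second probe set of Pard6g gave -0.58 and the 3 of Pard3b ranged from -2.12 to -0.18. The tetraspanins Tspan1 (2.18) and Tspan12 (2.08) were higher, with 2.61 and 2.06 in the other pair. A second probe set of Tspan1 gave 0.65 at passage 3 and 0.81 in the other pair, and Tspan12 has 1 probe set.

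Matrix and protease genes split. Among 23 collagen, laminin and glycoprotein genes, the lysyl oxidase relative Loxl4 (1.94) and, at low intensity, Col6a1 (1.10) were 2-fold higher. Tenascin C (Tnc, -1.39) and thrombospondin 1 (Thbs1, -1.24, with 1699 and 4031) were 2-fold lower. Loxl4 and Tnc kept their direction in the other pair (1.53 and -1.07), and Col6a1 and Thbs1 did not (-0.26 and 0.24). Of 18 proteases and inhibitors, 11 were lower and 7 higher, and 3 were at least 2-fold lower and 0 at least 2-fold higher. Those 3 were urokinase Plau (-1.34), Timp1 (-1.20) and the anti-angiogenic serpin Serpinf1 (-1.03), and second probe sets gave -0.47 for Plau and -0.25 for Serpinf1. Of these 3, Plau and Timp1 had 0.59 and 0.09 in the other pair, and Serpinf1 had -1.11. Of 15 heparan sulfate genes, the heparanase homologue Hpse2 was 2-fold higher (2.34) and the syndecan Sdc3 2-fold lower (-1.30, with probe sets from -1.30 to 0.08). They had 1.73 and -0.16 in the other pair. Of 12 angiogenic genes 7 were lower, 4 of them by 2-fold or more, the growth factor Pdgfb (-1.39), the co-receptor Nrp1 (-1.37), Thbs1 and Serpinf1. Pdgfb had -0.25 and Nrp1 -2.94 in the other pair. Thbs1 and Serpinf1 inhibit vessel growth, while Pdgfb and Nrp1 promote it.

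Signalling lists held few 2-fold members. Of 10 ERBB genes, 9 had a higher value (median 0.26), with Erbb3 at 0.81 and Erbb2 at 342 and 280 (0.28). Whether the Erbb2 probe set also binds the rat neu transcript was not tested. The ligand epigen (Epgn) was the 1 lower member (-1.12), and it had 0.64 in the other pair. In the Notch list the target Hey1 was 2-fold higher (2.33, 852 and 157) and Jag1 2-fold lower, with 0.73 and -1.74 in the other pair. In the TGF-beta and BMP list Sostdc1 and the co-receptor Tgfbr3 (1.11, with a second probe set at 0.62) were 2-fold higher. Sostdc1 had 0.78 and Tgfbr3 -0.29 in the other pair. Of the 18 genes of that list 10 had a lower value at passage 3, 0 of them by 2-fold. Of 19 Wnt genes 0 were 2-fold apart, with a median of 0.05. Of 20 semaphorins, ephrins and receptors, Sema3b was 2-fold higher and Nrp1 2-fold lower.

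Among metabolic lists, 25 oxidative phosphorylation genes had a median of 0.22 and 16 cytosolic ribosomal protein genes one of 0.18, with 0 members 2-fold apart in either and 0.28 and 0.21 in the other pair. There the ribosomal median changed sign with quantile normalization, to -0.02. Of 18 sterol and fatty acid synthesis genes the desaturase Scd1 was 2-fold higher (1.44, with 2398 and 877, and 1.37 in the other pair). Of 25 hypoxia and glycolysis genes, Egln3 and Aldoc (1.30) were 2-fold higher and Bnip3, a mitophagy receptor, 2-fold lower (-1.98, with 108 and 473). These members ran in opposite directions and the median was 0.01. Egln3, Aldoc and Bnip3 had 1.66, 0.09 and -1.26 in the other pair. Of 14 p53 targets, Gadd45a was 2-fold higher at passage 3 (713 and 344) and 2-fold lower in the other pair (509 and 1143). Among 10 S100 genes, S100a1 (1.38) and S100b were 2-fold higher and S100a4 was 2-fold lower, and of 11 zinc transporters and metallothioneins Slc39a8 was the 1 past 2-fold. In the lipid uptake list Lpl was the 1 of 8.

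**Figure D5:**
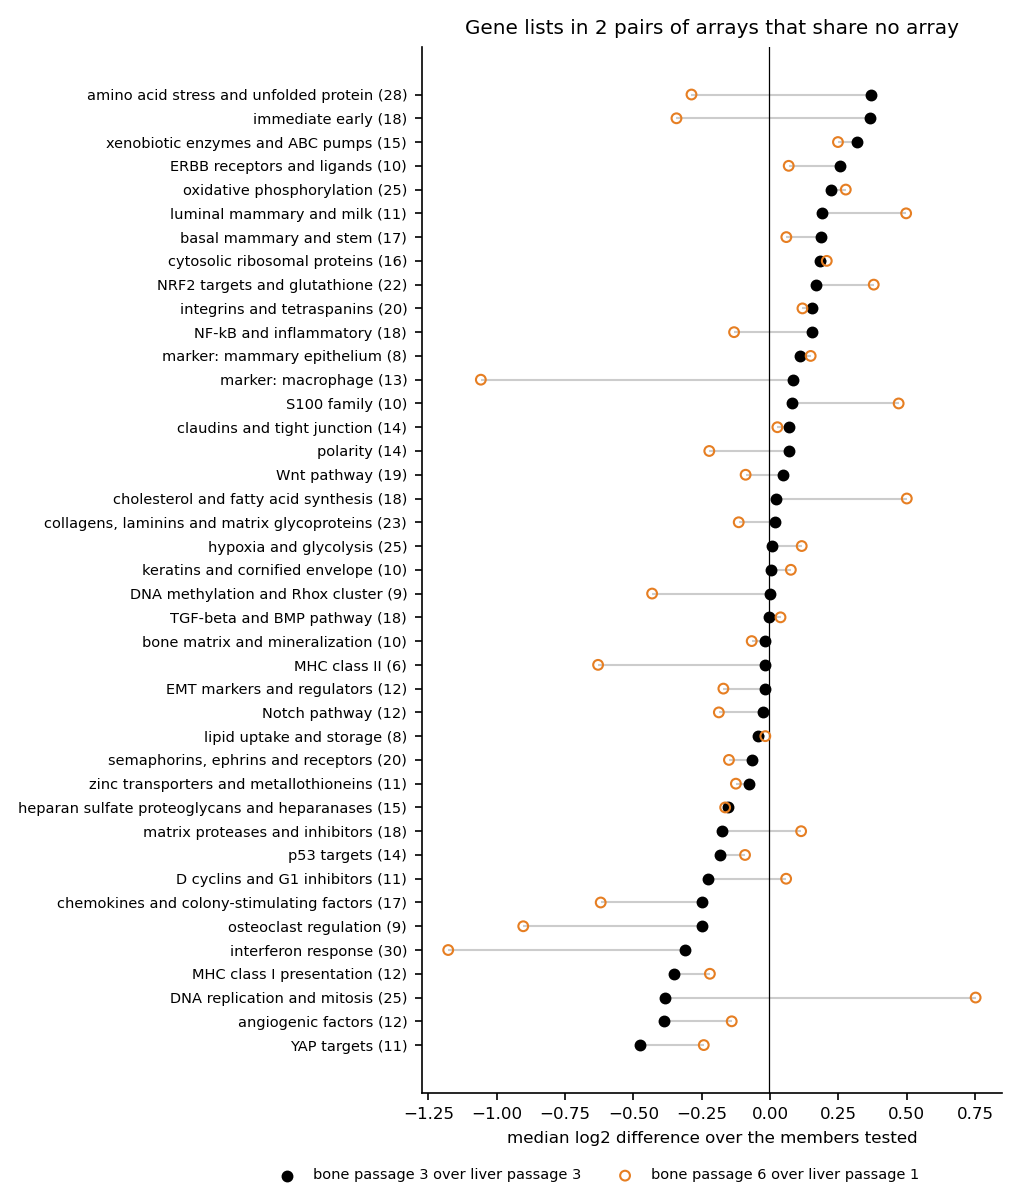
Median log2 difference over the tested members of each list with at least 6 of them (number in brackets), for bone passage 3 over liver passage 3 (filled) and bone passage 6 over liver passage 1 (open); the vertical line is the median of all genes at passage 3. YAP targets are lowest at passage 3 (-0.48) and amino acid stress genes highest (0.37), and macrophage markers lie at 0.08 and -1.06. Some of the macrophage markers passed the intensity filter through liver passage 1 alone.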

How the data were processed

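The deposited table holds linear intensities, 1 value per probe set and array, and the submitters' processing notes name RMA without a version. RMA gives log2 values, which these are not, and their mean after trimming 2% at each end is 150.0 on each array. The step between is not stated. Per the labels' protocols, 5 ug of total RNA was labelled with biotin.

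Intensities were converted to log2(intensity + 16) in Python 3.11.15 with pandas 2.3.3, with no further normalization. Of 45101 probe sets, 34945 had 1 gene in the platform annotation, 932 had several and 9211 were not listed, and only the first kind was used, without the 64 control probe sets. Probe sets were dropped unless some array reached 25.1, the median of the whole table. Each gene took the values of its brightest remaining probe set, by mean over arrays. Since a gene can pass this filter through 1 array, counts among dim genes are open to it.

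Each group is 1 array, so no test was run. The named genes were, per direction, the 15 largest with 2 probe sets at least 2-fold apart, the 5 largest with 1 probe set, up to 4 per gene list and a few set by name, 102 in all, of which 2 were under 2-fold. Known by a RIKEN or predicted name only were 3. Members, lists and rules were chosen with earlier results of these data known, and the chromosome medians and motifs were added after seeing the values. Promoter windows came from RefSeq (GRCm38.p6). Alternatives were no filter or one on the mean, pseudocounts of 1 and 64, median centring, quantile normalization, averaged probe sets, specific probe sets first and a 3-fold threshold. Scaling of the other pairs was added after seeing the values.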

Additional observations from a re-analysis of the deposited data

Results flagged for a closer look

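Among the named genes at least 2-fold apart at passage 3, 5 were at least 2-fold apart the other way in bone passage 6 over liver passage 1. The log2 difference there was 1.26 for Csf2, 1.25 for Akr1c13 and 2.43 for S100a4, which were lower in bone at passage 3 (-1.49, -1.11 and -1.28). It was -2.27 for Trib3 and -1.14 for Gadd45a, which were higher at passage 3 (1.09 and 1.02). The difference between the pairs was not tested, since each value is 1 array against 1 array.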

How the results depend on the processing

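The 584 genes at least 2-fold apart at passage 3 became 1058 with a pseudocount of 1, 223 with one of 64 and 143 at a 3-fold threshold, and stayed within 1.5 times under the other alternatives. With 65.0% of the calls higher at the 3-fold threshold, against 284 of 584 at 2-fold, the split moved to the bone side, and it was 54.3% with a pseudocount of 64. The 199 genes with agreeing probe sets became 104 with a pseudocount of 64 and 49 at 3-fold. The 897 genes of the other pair became 1571, 370 and 202, and the 186 shared by both pairs 379, 72 and 43, for pseudocounts of 1 and 64 and for 3-fold. Of 100 named genes past 2-fold, 71 were so with a pseudocount of 64 and 90 with probe sets averaged, and 0 changed sign under any alternative. The X median was -0.21 with no filter and -0.40 with a pseudocount of 64, and for chromosomes 9, 3, 5 and 6 these values were -0.16 and -0.21, -0.14 and -0.18, -0.13 and -0.15, and 0.080 and 0.13. Chromosome 3 had -0.28 and chromosome 5 -0.23 with a filter on the mean, -0.28 and -0.24 with a pseudocount of 1, and chromosome 5 had -0.18 with averaged probe sets. These kept their sign. Some list medians near 0 did not, among them macrophage markers and angiogenic genes: over the alternatives macrophage markers ran from -0.28 to 0.20 and angiogenic genes from -0.41 to 0.088. The pseudocount acts by construction on dim genes, and the cause of the other changes was not tested. No paired analysis was possible because each group is 1 array. No array could be left out for the same reason.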
